A study of Homo sapiens with 6 samples.

Results

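The 9 genes described here carry cholesterol through the macrophage after lipoprotein uptake: they split cholesterol esters in the lysosome, move the freed cholesterol out, store it again as ester, release it from the store, and hydroxylate it. They are LIPA, NPC2, NPC1, STARD3, SOAT1, NCEH1, CES1, CYP27A1 and CH25H. Each was found in the deposited gene table by its symbol, whatever its values, and each symbol had 1 row, so 9 of 35009 genes were taken. The libraries hold polyadenylated RNA of macrophages made from THP-1, a line of human leukaemic monocytes. All cells were exposed to ox-LDL, an oxidised form of low-density lipoprotein that turns macrophages into foam cells. The siMCT4 group has 3 libraries of cells deficient in MCT4, the lactate and proton exporter encoded by SLC16A3. The control group has 3 libraries of ox-LDL-exposed cells with the genotype given as control. Whether the control cells received an siRNA of their own is not given in the labels, so loss of MCT4 and the presence of an siRNA cannot be told apart. Nor do the labels state that the libraries of a group came from separate cultures, and p-values therefore measure the spread between these samples, which may be technical.

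Macrophages take up modified lipoproteins through scavenger receptors and deliver them to lysosomes, where acid lipase splits the cholesterol esters. In the lysosome NPC2 is known to bind the freed cholesterol and hand it to the membrane protein NPC1, through which it leaves for other membranes. At the endoplasmic reticulum SOAT1 esterifies the surplus for storage in lipid droplets, and neutral hydrolases release it again for efflux. A small share is hydroxylated to oxysterols, which activate the liver X receptors and restrain sterol synthesis.

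In MCT4-deficient macrophages LIPA, NPC1, SOAT1 and NCEH1 rose, by 1.21-fold, 1.75-fold, 1.46-fold and 1.70-fold. NPC2 and CYP27A1 fell, by 19.97% and 40.1%, but NPC2 kept its call in only 8 of 20 alternative settings. STARD3 and CES1 did not pass the test, and CH25H was too low to be tested. Of the 9 genes 8 were therefore tested, 4 were called higher, 2 lower and 2 neither, at an adjusted p under 0.05 (quasi-likelihood test of edgeR, Benjamini-Hochberg adjustment over 19944 genes). The background was high: 41.4% of all tested genes were called, 20.6% higher and 20.8% lower. The median log2 change of the 8 tested genes was 0.08, against -0.01 over all tested genes, and the median size of a change over all tested genes was 0.43. In 7 of the 8 the values of the groups did not overlap, as in 55% of all tested genes. A change of these genes is thus set in a comparison in which much of the transcriptome moved.

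The targeted gene SLC16A3 had 691, 768 and 949 counts in siMCT4 libraries 1, 2 and 3, against 7708, 6428 and 6848 counts in control libraries 1, 2 and 3. Its log2 change was -3.20 (SE 0.102; adjusted p = 1.1e-06, edgeR). Total counts per library ran from 61880619 to 69103124 in siMCT4 and from 65010219 to 69181938 in controls. All 12 macrophage markers examined reached a mean FPKM of 1, with a summed level of 1128 to 1160 FPKM in siMCT4 libraries and 1274 to 1294 FPKM in control libraries. T cell markers reached it in 1 of 5 genes, TRAC, with sums of 2.13 to 2.32 FPKM in siMCT4 and 10.8 to 13.8 FPKM in controls; CD3D, CD3E, CD3G and CD2 had no counts here. B cell markers (0 of 4 reached it; MS4A1 without counts) summed to 2.27 to 2.63 FPKM in siMCT4 and 0.550 to 0.606 FPKM in controls, and fibroblast markers (0 of 6; LUM without counts) to 0.839 to 3.20 FPKM in siMCT4 and 0.527 to 0.750 FPKM in controls. Endothelial markers (0 of 4; CDH5 without counts) summed to 0.0648 to 0.126 FPKM in siMCT4 and 0.0942 to 0.245 FPKM in controls. Epithelial and hepatocyte markers (1 of 5, APOA1) summed to 12.02 to 15.3 FPKM in siMCT4 and 14.0 to 17.9 FPKM in controls. The part of other cell types in the results was not tested. In bulk RNA such as this, fewer cells of a type and less RNA per cell cannot be told apart.

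GC-rich genes, those with at least 60% G and C in their exons, stood lower in the siMCT4 libraries. Over 1297 such genes the median log2 ratio to the mean of the controls was -0.53, -0.57 and -0.18 in siMCT4 libraries 1, 2 and 3, and between -0.01 and 0.01 in the control libraries. STARD3 (59.2% GC) and CYP27A1 (59.6% GC) lie nearest to that class among the 9 genes, and SOAT1 (40.0% GC), NCEH1 (41.1% GC) and LIPA (42.8% GC) lie farthest from it. Values corrected for GC content are given for some genes only, and other values moved with the correction as well.

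The promoter windows of the 4 genes that passed the test with the largest changes, NPC1, NCEH1, CYP27A1 and SOAT1, are printed because these genes moved in both directions and can be set side by side. Each runs from 250 bases before to 50 bases after the start site that RefSeq gives on GRCh38.p14, 5′ to 3′ on the gene's own strand, and the capitals mark the SP1 GC box GGGCGG or its complement. The windows are chr18:23586457-23586756 on the - strand for NPC1, chr3:172711018-172711317 on the - strand for NCEH1, chr2:218781897-218782196 on the + strand for CYP27A1 and chr1:179293547-179293846 on the + strand for SOAT1. The RefSeq start of NPC1 lies 9559 bases outside the span that the deposited table gives for the gene.
NPC1: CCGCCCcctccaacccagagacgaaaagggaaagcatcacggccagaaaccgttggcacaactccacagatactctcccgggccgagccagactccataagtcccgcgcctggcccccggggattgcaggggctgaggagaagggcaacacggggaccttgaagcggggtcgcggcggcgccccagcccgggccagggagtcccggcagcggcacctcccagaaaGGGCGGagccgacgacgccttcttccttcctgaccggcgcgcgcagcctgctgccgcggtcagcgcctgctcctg
NCEH1: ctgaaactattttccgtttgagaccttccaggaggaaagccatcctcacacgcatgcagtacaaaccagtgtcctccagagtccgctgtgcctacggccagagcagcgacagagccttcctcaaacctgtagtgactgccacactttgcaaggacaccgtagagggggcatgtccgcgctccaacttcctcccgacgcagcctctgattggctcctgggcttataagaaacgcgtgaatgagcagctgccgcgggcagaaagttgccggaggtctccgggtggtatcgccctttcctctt
CYP27A1: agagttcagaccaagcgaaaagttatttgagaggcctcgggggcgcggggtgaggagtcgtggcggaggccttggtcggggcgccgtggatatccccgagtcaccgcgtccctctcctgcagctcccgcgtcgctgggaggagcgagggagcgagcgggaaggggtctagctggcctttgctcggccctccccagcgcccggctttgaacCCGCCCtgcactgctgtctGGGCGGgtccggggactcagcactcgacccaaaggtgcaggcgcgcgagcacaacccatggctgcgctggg
SOAT1: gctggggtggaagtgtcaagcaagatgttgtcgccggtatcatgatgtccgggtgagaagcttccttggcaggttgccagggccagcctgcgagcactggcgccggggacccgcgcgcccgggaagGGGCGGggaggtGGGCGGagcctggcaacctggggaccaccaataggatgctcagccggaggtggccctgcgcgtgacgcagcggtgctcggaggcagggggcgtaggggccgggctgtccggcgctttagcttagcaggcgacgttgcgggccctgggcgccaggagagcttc
The GC box occurred in the windows of NPC1, SOAT1 and CYP27A1 but not in that of NCEH1. Among the 8 of 9 genes with a window in the table it was present in 7, against 44.6% of all 27305 promoter windows. The other motifs were searched on both strands and matched none of these windows, so none overlapped a GC box. The E-box CACGTG, the core of the element bound by the lysosomal regulator TFEB, occurred in 7.43% of all windows and in 0 of these 8. The sterol regulatory element TCACNCCAC occurred in 1.15% of all windows and in 0 of these 8. The core of the interferon-stimulated response element, GAAA followed after any 2 bases by another GAAA, occurred in 3.65% of all windows and in 0 of these 8. Absence here means only that these letters are not in these windows.

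**Figure D1:**
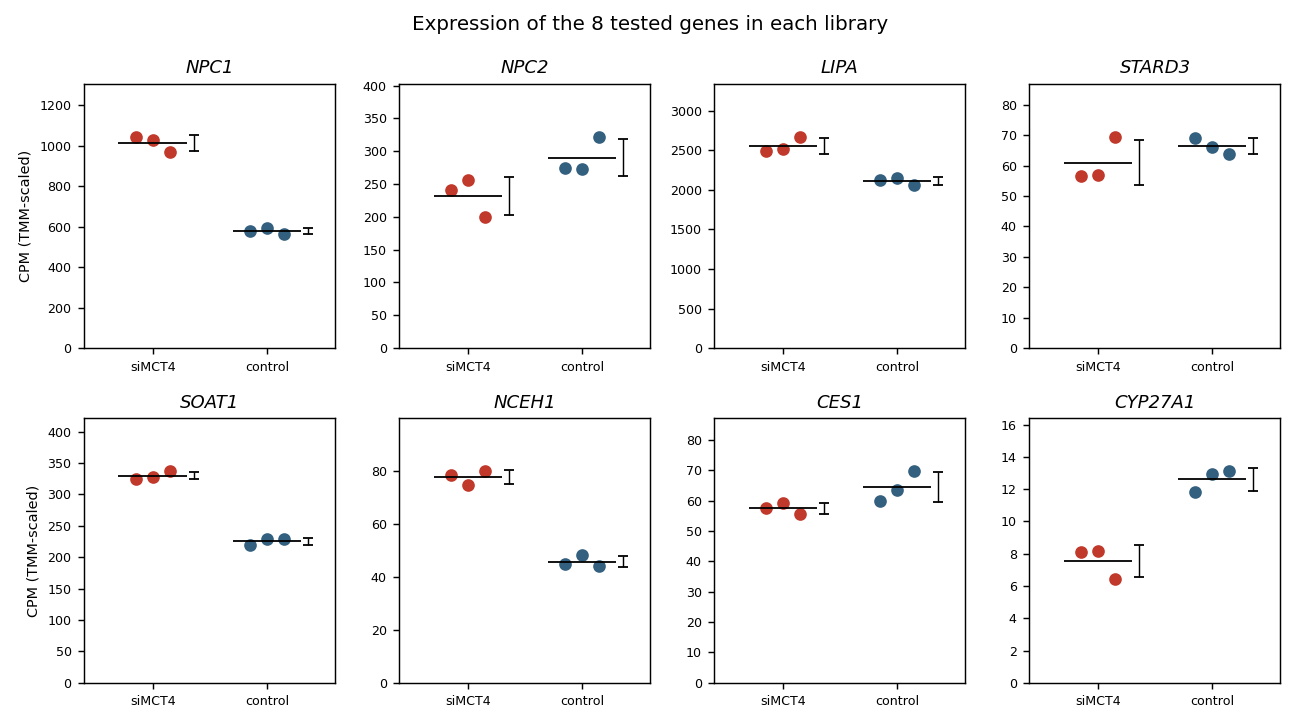
Expression of 8 genes in TMM-scaled CPM (counts per 1000000 in a library; linear axes from 0) in the siMCT4 libraries (left) and the control libraries (right); points run from replicate 1 to 3, the bar is the mean and the error bar beside it the SD (n = 3). LIPA, NPC1, SOAT1 and NCEH1 lie higher in all siMCT4 libraries, and NPC2, CYP27A1 and CES1 lie lower. CES1 did not pass the test, and the STARD3 values of the groups overlap.

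LIPA encodes lysosomal acid lipase, the enzyme that splits cholesterol esters and triglycerides delivered by lipoproteins. Its gene (ENSG00000107798) spans chr10:89213569-89414557 on the - strand. Expression was 2488, 2517 and 2675 CPM in siMCT4 libraries 1, 2 and 3, against 2125, 2154 and 2059.9 CPM in control libraries 1, 2 and 3. All siMCT4 libraries lay above all control libraries. The means were 2560.2 ± 101 CPM in siMCT4 and 2113 ± 48.2 CPM in controls (SD, n = 3 each), a log2 change of 0.28 (SE 0.0425; adjusted p = 0.00169, edgeR). That size lies below the median of 0.43 for all tested genes, of which 34.5% changed less than LIPA. On TPM, a scale on which the median change of all genes was 0.15, the change of LIPA was 0.48. With GC correction it was 0.22, and with GC and length correction 0.19.

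The deposited span of LIPA also contains the interferon-induced genes IFIT1, IFIT2 and IFIT3 on the opposite strand. IFIT2 had 4155, 4355 and 4234 counts in siMCT4 libraries, against 351, 316 and 318 counts in controls. LIPA and IFIT2 share 65 exon bases, 1.33% of the exon bases of LIPA. With every IFIT2 count subtracted from LIPA, more than the shared bases could supply if reads were spread evenly, the log2 change of LIPA was 0.24 (adjusted p = 0.00327, edgeR). IFIT1 had 18990, 20225 and 19599 counts in siMCT4 libraries, against 236, 266 and 228 counts in controls. IFIT3 had 14070, 14964 and 14737 counts in siMCT4 libraries, against 1165, 1022 and 1117 counts in controls. No exon bases shared with LIPA were found for IFIT1 or IFIT3. Their counts were not subtracted, so a share of them in LIPA was not tested. The strand setting of the counting is not given in the sources used here, though the library preparation marked the strand.

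NPC2 and NPC1, the consecutive carriers of lysosomal cholesterol, changed in opposite directions. NPC2 (ENSG00000119655, chr14:74476192-74493347, - strand), the soluble sterol-binding protein of the lysosome lumen, had 241, 256 and 199.9 CPM in siMCT4 libraries 1, 2 and 3, against 275, 273 and 322 CPM in control libraries 1, 2 and 3. The groups did not overlap in CPM, and siMCT4 library 3 was the lowest and control library 3 the highest. In FPKM they did overlap: siMCT4 library 2 had 95.79 FPKM, above control libraries 1 (95.16 FPKM) and 2 (95.78 FPKM). Means were 232 ± 29.02 CPM in siMCT4 and 290.2 ± 27.9 CPM in controls (SD, n = 3 each), with a log2 change of -0.32 (SE 0.104; adjusted p = 0.0422, edgeR). This call was not stable: NPC2 passed in 8 of 20 alternative settings and missed in 12, with adjusted p from 0.0535 to 0.347 in those. Without siMCT4 replicate 3 its log2 change was -0.20 (adjusted p = 0.0609), and without control replicate 3 it was -0.24 (adjusted p = 0.132). Without siMCT4 replicate 1 and control replicates 1 and 2 in turn the call was lost as well. NPC2 shares 103 exon bases, 3.75% of its own, with ISCA2 on the opposite strand. With the ISCA2 counts subtracted its log2 change was -0.33 and it missed the threshold (adjusted p = 0.0535, edgeR). It also shares 72 bases with MIR4709 on its own strand, which had 1 to 3 counts in each library.

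NPC1 (ENSG00000141458, chr18:23506184-23576947, - strand), the membrane protein of late endosomes and lysosomes whose loss causes Niemann-Pick type C disease, showed the largest estimated rise of the 8 tested genes, though in siMCT4 library 3 taken alone NCEH1 changed more (0.82 for NCEH1 and 0.76 for NPC1 on the log2 scale). It had 1045, 1026 and 969.7 CPM in siMCT4 libraries 1, 2 and 3, against 581, 592 and 565 CPM in control libraries 1, 2 and 3. The lowest siMCT4 library stood far above the highest control library. The means were 1014 ± 39.2 CPM in siMCT4 and 579 ± 13.7 CPM in controls (SD, n = 3 each), and the log2 change was 0.81 (SE 0.0439; adjusted p = 1.2e-05, edgeR). Of all tested genes 73.5% changed by less. The call held in all 20 alternatives, with log2 changes from 0.76 to 1.005. NPC1 shares 604 exon bases, 6.36% of its own, with RMC1 on the opposite strand, and with the RMC1 counts subtracted its log2 change was 0.84.

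Within a library, the FPKM of NPC1 (fragments per kilobase of gene and 1000000 fragments) divided by that of NPC2 was 1.16, 1.07 and 1.29 in siMCT4 libraries 1, 2 and 3, against 0.562, 0.577 and 0.467 in control libraries 1, 2 and 3. NPC1 thus stood above NPC2 in every siMCT4 library and below it in every control library. The mean log2 ratio was 0.22 ± 0.138 in siMCT4 and -0.91 ± 0.167 in controls (SD, n = 3 each), a difference of 1.13 or 2.19-fold. The exact two-sided permutation test over 20 assignments gave p = 0.1, the smallest possible with groups of 3, before and after adjustment over the 3 ratios examined. The ratio does not depend on the scaling between libraries.

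STARD3 (ENSG00000131748, chr17:39637090-39664201, + strand) binds cholesterol on late endosomes and tethers them to the endoplasmic reticulum. It had 56.5, 56.8 and 69.5 CPM in siMCT4 libraries 1, 2 and 3, against 68.99, 66.1 and 63.7 CPM in control libraries 1, 2 and 3. Libraries 1 and 2 of siMCT4 lay below all controls, and library 3 lay above them. With means of 61.0 ± 7.42 CPM in siMCT4 and 66.3 ± 2.62 CPM in controls (SD, n = 3 each), the log2 change was -0.12 (SE 0.0887; 95% interval -0.29 to 0.05; adjusted p = 0.319, edgeR). The value changed sign with GC correction (0.12, adjusted p = 0.184) and on TPM (0.073, adjusted p = 0.535). Without siMCT4 replicate 3 it passed as lower (-0.20, adjusted p = 0.012). No direction is given for STARD3.

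SOAT1 (ENSG00000057252, chr1:179293714-179358680, + strand), the acyl-CoA:cholesterol acyltransferase that makes the cholesterol esters of foam cells, had 325, 328 and 337 CPM in siMCT4 libraries 1, 2 and 3. In control libraries 1, 2 and 3 it had 219, 229 and 229 CPM. Values within a group lay close together and the groups were well apart. The means were 330.0 ± 6.12 CPM in siMCT4 and 226 ± 5.46 CPM in controls (SD, n = 3 each), a log2 change of 0.55 (SE 0.0402; adjusted p = 4.7e-05, edgeR). All 20 alternatives kept the call, with log2 changes from 0.48 to 0.74.

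NCEH1 (ENSG00000144959, chr3:172630249-172711218, - strand) encodes neutral cholesterol ester hydrolase 1, an endoplasmic reticulum enzyme that works against SOAT1 by releasing cholesterol from stored ester. It had 78.4, 74.9 and 79.9 CPM in siMCT4 libraries 1, 2 and 3, against 45.1, 48.1 and 44.3 CPM in control libraries 1, 2 and 3. Every siMCT4 library exceeded every control library. With means of 77.7 ± 2.59 CPM in siMCT4 and 45.8 ± 2.05 CPM in controls (SD, n = 3 each), the log2 change was 0.76 (SE 0.0558; adjusted p = 4.6e-05, edgeR), and it ran from 0.69 to 0.94 over the 20 alternatives with the call kept.

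The transferase and the hydrolase therefore rose together, and NCEH1 by the larger factor. The FPKM of SOAT1 divided by that of NCEH1 was 2.85, 3.00 and 2.90 in siMCT4 libraries 1, 2 and 3, against 3.34, 3.27 and 3.55 in control libraries 1, 2 and 3, and the groups did not overlap. The mean log2 ratio was 1.54 ± 0.0395 in siMCT4 and 1.76 ± 0.0612 in controls (SD, n = 3 each), a difference of -0.22 (exact permutation p = 0.1, the smallest possible). LIPA divided by SOAT1 had a mean log2 FPKM ratio of 3.47 ± 0.0296 in siMCT4 and 3.74 ± 0.0525 in controls (SD, n = 3 each), a difference of -0.27 with the same exact permutation p of 0.1. The level of each ratio rests on the gene lengths behind FPKM, which cancel in the difference between groups.

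CES1 (ENSG00000198848, chr16:55802851-55833104, - strand), a carboxylesterase that can hydrolyse cholesterol esters and is carried at high levels by monocytes, had 57.5, 59.2 and 55.7 CPM in siMCT4 libraries 1, 2 and 3. Control libraries 1, 2 and 3 had 59.8, 63.6 and 69.6 CPM. All siMCT4 libraries lay below all controls in CPM, by a narrow margin. In FPKM the groups overlapped, with control library 1 (18.20 FPKM) below siMCT4 libraries 1, 2 and 3 (18.92, 19.47 and 18.24 FPKM). The means were 57.4 ± 1.77 CPM in siMCT4 and 64.3 ± 4.95 CPM in controls (SD, n = 3 each), and the log2 change of -0.16 (SE 0.0672; 95% interval -0.30 to -0.03; adjusted p = 0.0908, edgeR) missed the threshold, as it did in all 20 alternatives. On TPM the value was 0.039. The pseudogene CES1P1, with which CES1 can share reads, had 98, 141 and 45 counts in siMCT4 libraries, against 40, 130 and 162 counts in controls.

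**Figure D2:**
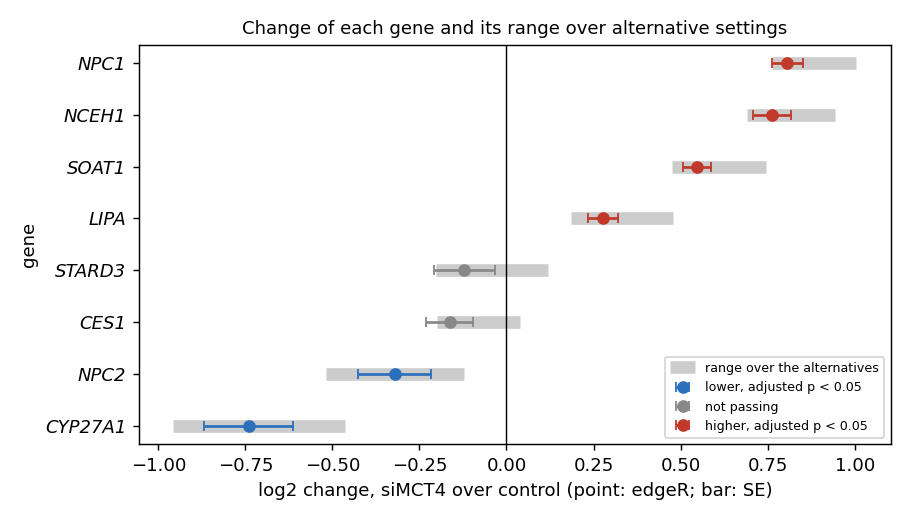
Log2 change of siMCT4 over control for the 8 tested genes: the point is edgeR's estimate, the thin bar its SE and the grey bar the range over 20 alternative settings. NPC1, NCEH1, SOAT1 and LIPA stay above 0 and NPC2 and CYP27A1 below 0 in all settings, while the ranges of STARD3 and CES1 cross 0.

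CYP27A1 (ENSG00000135929, chr2:218781749-218815293, + strand), the mitochondrial sterol 27-hydroxylase that makes the main oxysterol of macrophages, showed the largest fall of the 8 tested genes. It had 517, 567 and 455 counts in siMCT4 libraries 1, 2 and 3, against 791, 828 and 828 counts in control libraries 1, 2 and 3. In CPM these were 8.10, 8.16 and 6.42 in siMCT4 and 11.8, 13.0 and 13.1 in controls, so the groups were separate, with siMCT4 library 3 lowest. The means were 7.56 ± 0.987 CPM in siMCT4 and 12.6 ± 0.716 CPM in controls (SD, n = 3 each). Its log2 change was -0.74 (SE 0.128; adjusted p = 0.00293, edgeR). The call held in all 20 alternatives, but GC correction moved the value to -0.46 (adjusted p = 0.042). On log2(FPKM + 1), which understates changes of low genes, the value was -0.48.

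CH25H (ENSG00000138135, chr10:89205629-89207317, - strand) encodes cholesterol 25-hydroxylase, an enzyme that interferon is known to induce in macrophages. It had 4, 2 and 0 counts in siMCT4 libraries 1, 2 and 3 and 0 counts in each control library. That is 6 counts of 198470357 in siMCT4 and 0 of 200072369 in controls, where 0 counts allow up to 0.0150 CPM, unscaled, at a floor of 3 counts over the group. Since the counts of siMCT4 lie near the same floor, 0.0151 CPM, no test and no fold are given. If 2 counts stand for 1 fragment, both limits would be higher. The gene lies 6251 bases from the end of LIPA, so the neighbours differ widely in level. A ratio of CYP27A1 to CH25H could not be formed.

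Per length, the order of the genes was the same at both ends and differed in the middle. Mean FPKM in siMCT4 libraries was 505 ± 18.8 for LIPA, 101 ± 4.10 for NPC1, 86.8 ± 11.002 for NPC2 and 45.5 ± 0.749 for SOAT1 (SD, n = 3 each). Below these in siMCT4 came CES1 at 18.9 ± 0.615, NCEH1 at 15.6 ± 0.501, STARD3 at 10.04 ± 1.199, CYP27A1 at 2.44 ± 0.323 and CH25H at 0.0173 FPKM. In control libraries LIPA stood at 387 ± 12.9, NPC2 at 100.5 ± 8.72, NPC1 at 53.5 ± 1.85 and SOAT1 at 28.9 ± 0.811 FPKM. Then followed CES1 at 19.6 ± 1.40, STARD3 at 10.1 ± 0.453, NCEH1 at 8.53 ± 0.474, CYP27A1 at 3.78 ± 0.221 and CH25H at 0 FPKM in controls. LIPA alone made up 64.3% of the summed FPKM of the 9 genes in siMCT4 and 63.2% in controls. NPC1 ranked above NPC2 in siMCT4 and below it in controls, and NCEH1 ranked above STARD3 in siMCT4 and below it in controls. The library ranges of neighbours did not overlap in either group.

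**Figure D3:**
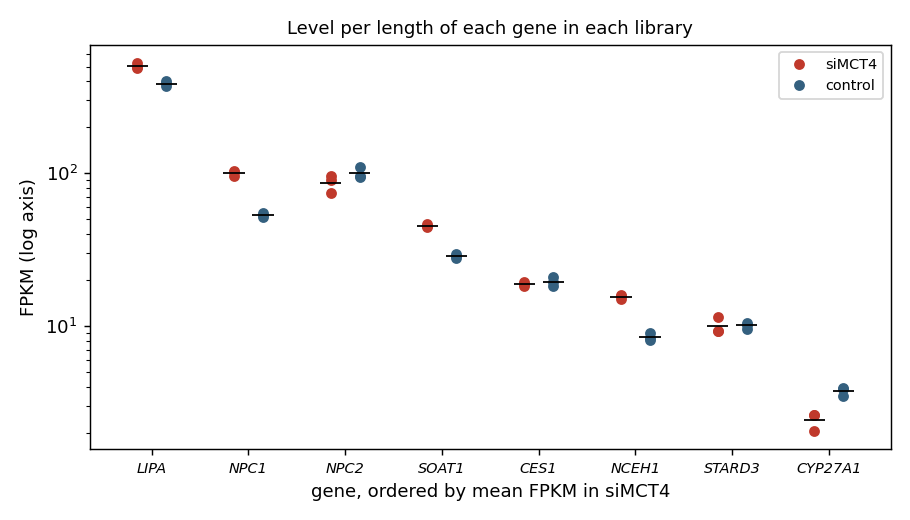
FPKM of the genes per library on a log axis, siMCT4 libraries and control libraries side by side; CH25H, at or near 0, is not drawn. LIPA is the most abundant and CYP27A1 the least in both groups, and NPC1 and NPC2 change places.

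The order rests partly on the gene length behind FPKM. With the longest transcript as length instead, a choice made after the data were seen, NPC1 kept its place above NPC2 in siMCT4, at 202 against 167 counts per 1000000 and kilobase, and NPC2 stood above NPC1 in controls, at 196 against 109. On that scale STARD3 averaged 18.2 and NCEH1 17.1 in siMCT4, so NCEH1 no longer ranked above STARD3 and their ranges overlapped. In controls STARD3 stood above NCEH1 on this scale too. The ranges also overlapped for SOAT1 and CES1 in controls.

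**Figure D4:**
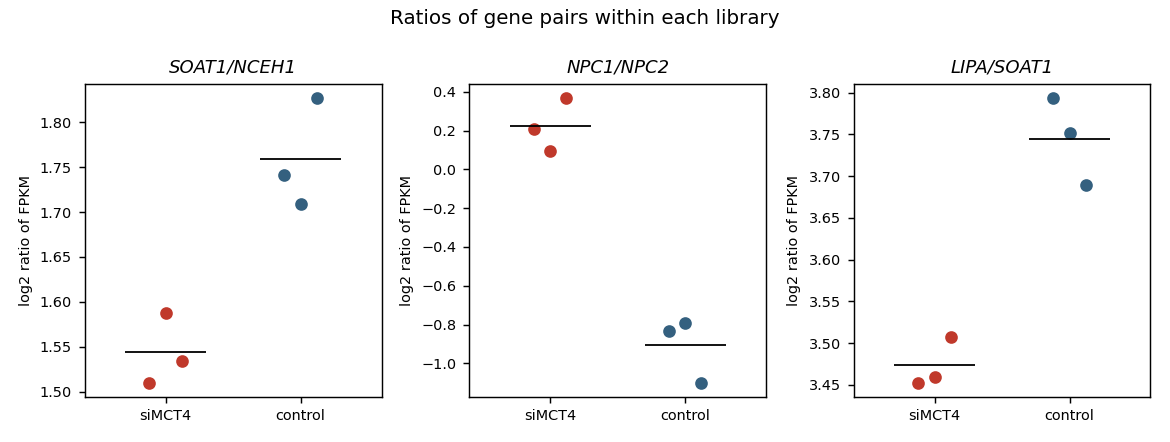
Log2 ratio of FPKM within each library for NPC1/NPC2, SOAT1/NCEH1 and LIPA/SOAT1, siMCT4 left of control; lines mark the group means. NPC1/NPC2 lies above 0 in all siMCT4 libraries and below 0 in all control libraries, and the other ratios are lower in siMCT4.

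Further genes of the pathway were counted in 4 lists, chosen from general knowledge. Among 17 genes of lysosomal lipid handling, all tested, 5 rose, 7 fell and 5 did not pass (70.6% called, against 41.4% of all tested genes; median log2 change -0.08). The balance of directions turned with the scaling: 9 were higher and 6 lower on TPM, 7 and 6 on log2(FPKM + 0.1), and 7 and 7 on log2(FPKM + 1). PSAP, the precursor of the saposins that present lipids to lysosomal enzymes, fell to 2987 ± 246 CPM in siMCT4, against 5530.1 ± 102 CPM in controls (log2 change -0.89; adjusted p = 3.6e-05, edgeR). SCARB2, the lysosomal membrane protein LIMP-2, had 482 ± 8.48 CPM in siMCT4 and 650.3 ± 2.03 CPM in controls (-0.43; adjusted p = 8.4e-05). PLA2G15, a lysosomal phospholipase, fell as well (-0.51; adjusted p = 0.000191), with a smaller value of -0.28 after GC correction (adjusted p = 0.0104). The protease CTSL (0.44; adjusted p = 0.00122, edgeR) and the retromer subunit VPS35 (0.27; adjusted p = 0.00279) rose.

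Among 22 genes of sterol transfer at membrane contacts, all tested, 5 rose, 10 fell and 7 did not pass (68.2% called; median -0.22). This balance turned as well: of the 19 genes that pass the FPKM filter, 6 were higher and 4 lower on TPM and 5 higher and 6 lower on log2(FPKM + 1), whereas GC correction of the counts gave 4 higher and 13 lower of 22. The oxysterol-binding protein family, whose members carry sterols and other lipids between membranes, moved both ways. OSBP rose to 117 ± 8.03 CPM in siMCT4, against 85.0 ± 3.31 CPM in controls (0.46; adjusted p = 0.000953, edgeR). OSBPL1A rose to 54.8 ± 3.19 CPM in siMCT4, against 36.5 ± 0.740 CPM in controls (0.58; adjusted p = 0.000261), and OSBPL2 rose too (0.37; adjusted p = 0.00195). OSBPL5, which works at contacts of the endoplasmic reticulum, fell to 6.39 ± 1.70 CPM in siMCT4, against 18.2 ± 0.791 CPM in controls (-1.51, adjusted p = 0.000534). With GC correction the log2 change of OSBPL5 was -1.02 (adjusted p = 0.000142, edgeR). OSBP2 had 3.07 ± 0.503 CPM in siMCT4 and 7.07 ± 0.252 CPM in controls (-1.20; adjusted p = 0.000912), and OSBPL6 had 0.820 ± 0.199 CPM in siMCT4 and 2.92 ± 0.241 CPM in controls (-1.83; adjusted p = 0.000716).

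Of 18 genes of ester synthesis and hydrolysis 16 were tested, of which 1 rose, 5 fell and 10 did not pass (37.5% called, below the share of all tested genes; median -0.19). With GC correction 3 were higher and 6 lower, and on TPM 3 higher and 4 lower of 12. PLIN2, a coat protein of lipid droplets, fell to 257 ± 20.8 CPM in siMCT4, against 584 ± 20.6 CPM in controls (-1.18, adjusted p = 1.3e-05, edgeR). CES2, a carboxylesterase related to CES1, had 35.97 ± 0.327 CPM in siMCT4 and 72.5 ± 5.66 CPM in controls (-1.01; adjusted p = 2.9e-05). DGAT2, which makes triglyceride, had 17.2 ± 0.972 CPM in siMCT4 and 33.4 ± 1.61 CPM in controls (-0.96; adjusted p = 6.1e-05). MGLL, the monoglyceride lipase, was the gene called higher in the edgeR test on counts, with 625 ± 14.6 CPM in siMCT4 and 448 ± 8.17 CPM in controls (0.48, adjusted p = 7.4e-05). With GC correction the log2 change of MGLL was 0.66. The rise of SOAT1 was therefore set beside a fall of PLIN2 and DGAT2. Of the same list, PLIN3 (0.07, adjusted p = 0.394, edgeR) and DGAT1 (-0.14, adjusted p = 0.0715) did not pass.

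Of 22 genes of oxysterol formation and response 16 were tested, of which 3 rose, 5 fell and 8 did not pass (50.0% called; median -0.20). The number called ran from 6 to 12 over the 20 alternatives. Without siMCT4 replicate 3, 4 were higher and 8 lower, and without control replicate 1 or 3, 3 were higher and 3 lower. DHCR7, an enzyme of the last steps of cholesterol synthesis, fell to 7.58 ± 1.22 CPM in siMCT4, against 27.3 ± 0.521 CPM in controls (-1.85; adjusted p = 2.7e-05, edgeR). GPR183, the receptor for 7α,25-dihydroxycholesterol, rose to 21.9 ± 0.240 CPM in siMCT4, against 7.35 ± 0.0905 CPM in controls (1.58; adjusted p = 7.3e-06), while CH25H, the enzyme upstream of its ligand, stayed near 0. INSIG2, which holds the sterol sensor in the endoplasmic reticulum, rose to 21.4 ± 0.410 CPM in siMCT4, against 11.9 ± 0.993 CPM in controls (0.84; adjusted p = 0.000255). HSD11B1, which reduces 7-ketocholesterol besides activating cortisone, rose as well (0.96; adjusted p = 0.00182). HSD3B7, an oxysterol dehydrogenase with 61.5% GC, fell by 0.58 on the log2 scale (adjusted p = 0.0095), and by 0.21 after GC correction (adjusted p = 0.0333).

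**Figure D5:**
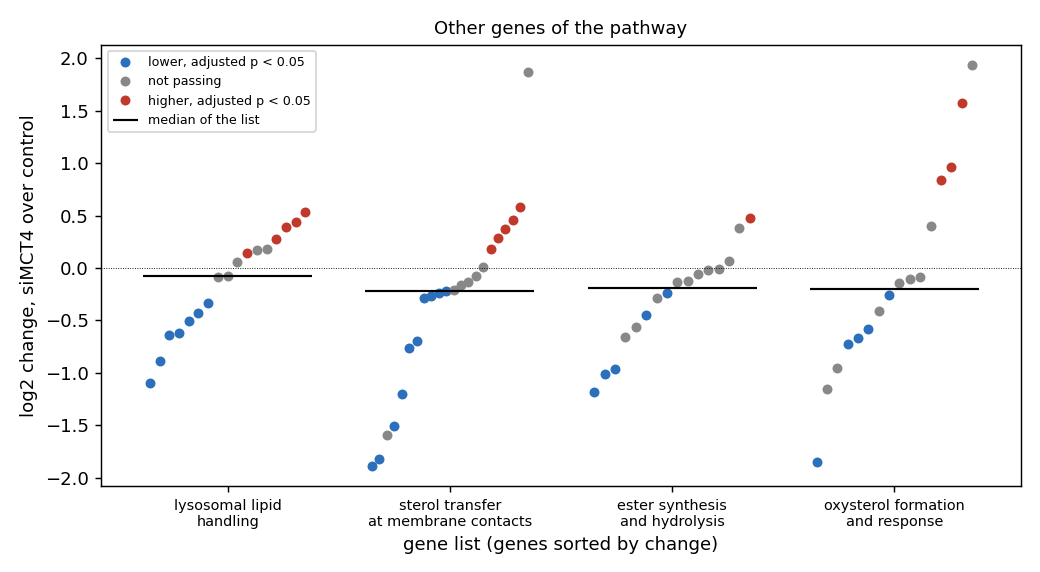
Log2 change of siMCT4 over control for each tested gene of the 4 lists, sorted within its list; the line is the list's median. Each list holds genes on both sides of 0, and all medians lie between -0.22 and -0.08.

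Likeness to other genes was described by Pearson's r of log2 CPM over the 6 libraries, among 13909 tested protein-coding genes. For NPC1 the nearest were EXD2 (r = 0.99994, log2 change 1.05), CCR1 (r = 0.99985, log2 change 0.70) and NUDT16 (r = 0.99961, log2 change 0.98). For CYP27A1 they were GHITM (r = 0.99942, log2 change -0.49), RPS4X (r = 0.99938, log2 change -1.01) and UQCRC2 (r = 0.99916, log2 change -0.54). Such values are common here, since 491 genes exceeded r = 0.99 with NPC1 and 141 with CYP27A1, and all points share the same 6 libraries and the same split into groups.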

How the data were processed

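Polyadenylated RNA was sequenced as paired ends after a dUTP preparation that marks the strand, per the labels' protocols. Reads were trimmed with cutadapt 1.9 and aligned with HISAT2 2.2.1 to GRCh38, names taken from the submitters' processing notes. How reads were counted, with which annotation and strand setting, is not given in the sources used here. The authors deposited 1 table with raw counts and FPKM of every gene in each library, per the file headers. Even numbers made up 58.7% to 60.9% of the counts from 2 to 41, so 2 counts may stand for 1 fragment, and counting limits cover counting error only.

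The counts were tested with edgeR 4.0.16 (quasi-likelihood, two-sided, TMM scaling, R 4.3.3) over the 19944 genes passing filterByExpr (smallest count 10, smallest total 15), with group as sole factor and Benjamini-Hochberg adjustment; the threshold was 0.05. SE is the size of the log2 change over the root of the F statistic. The 95% intervals use a normal multiplier of that SE, which makes them too narrow for groups of 3. The common biological coefficient of variation was 0.219. Library 3 of siMCT4 stood apart from its group. Chi-square per degree of freedom was 54.4 and 62.9 for it against siMCT4 libraries 1 and 2. Between siMCT4 libraries 1 and 2 it was 9.19, and among controls 12.5 to 17.6. Without siMCT4 library 3, 9708 genes were called, NPC2 did not pass and STARD3 passed as lower. GC content and transcript lengths came from GENCODE 29, and promoters from RefSeq GRCh38.p14. The edgeR step was tested on simulated data. Those data had no GC shift and no library standing apart, so that test checks the code only.

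The genes, lists and tests were chosen with earlier results of these data known. Named genes are the 9 genes, SLC16A3, up to 3 called genes of each list and direction with the smallest adjusted p, and the 3 nearest patterns of NPC1 and CYP27A1; some genes within this rule are not reported here. Some neighbours and copies that share bases or reads were named because they bear on a value. DGAT1 and PLIN3 were named to stand beside DGAT2 and PLIN2. Alternatives covered scaling, filters, DESeq2 1.42.0, limma 3.58.1 on FPKM and TPM, GC and length correction, a replicate block, and each library left out.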

Additional observations from a re-analysis of the deposited data

How the results depend on the processing

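Of the 9 genes, 4 were called higher in each of 20 alternatives, and NPC1, LIPA, SOAT1, NCEH1 and CYP27A1 kept their calls in all. The count called lower was 1, in place of 2, with upper-quartile scaling, with no filter, with limma on log2(FPKM + 1), log2(FPKM + 0.1) and log2(TPM + 1), with a replicate block and with overlapping genes subtracted, and 1 to 2 with each library left out. NPC2 is the gene lost: its log2 change was -0.29 (adjusted p = 0.0693) with upper-quartile scaling, -0.32 (0.0743) with no filter, -0.21 (0.136), -0.22 (0.137) and -0.12 (0.347) with limma on the FPKM scales and TPM, -0.33 (0.0535) with the overlapping gene subtracted, and -0.37 to -0.20 with each library left out. With the replicate block the log2 change of NPC2 was -0.32 (adjusted p = 0.104). Same-numbered deviations from the group means correlated at -0.10, 0.07 and -0.15. Deviations within a group of 3 are tied to one another, so these values cannot settle whether the replicate numbers pair the libraries. CES1 changed sign on TPM (0.039). STARD3 changed sign on TPM (0.073), with GC correction (0.12), with GC and length correction (0.083) and with siMCT4 library 3 alone (0.088), and ran from -0.20 to -0.047 with each library left out. The cause was not tested. On TPM 68.0% of calls were higher, against 49.8% in the edgeR test on counts. All 8260 calls compare with 6569 to 9708 over the alternatives. The 29 other genes named by the rule above kept direction and call in all 577 values. On log2(FPKM + 1) OSBP2 shrank to -0.43, OSBPL5 to -0.81, DGAT2 to -0.63 and DHCR7 to -1.15. On TPM SCARB2 shrank to -0.23, GHITM to -0.29 and UQCRC2 to -0.34, and VPS35 grew to 0.46. With GC correction PLA2G15 shrank to -0.28 and OSBPL5 to -1.02. CH25H, which had 6 counts in all, was not tested.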
